A study of Homo sapiens with 6 samples.

Results

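Of the 26485 gene symbols in the count tables, 8 belong to the set described here, interferon-induced genes chosen by name from among those that begin with IFI: IFI6, IFI27, IFI27L1, IFI27L2, IFI30, IFI35, IFI44 and IFI44L. A further 13 symbols that begin with IFI, which are IFI16, IFIH1 and those of the IFIT and IFITM families, are not part of the set. RNA was sequenced in AF22, an established human line of neural stem cells derived from induced pluripotent cells, as 3 libraries labelled COMMD3/COMMD3-BMI1_KD (a knockdown of COMMD3 and of its readthrough with BMI1) and 3 libraries labelled shControl (a control short hairpin RNA, genotype WT). All 6 libraries share the line. The labels name neither the reagent behind the knockdown nor whether the cells were a pool or 1 clone, nor do they say whether the replicates came from separate cultures. The p-values below therefore set the difference between the groups against the spread among these libraries only, and may not extend to a new knockdown.

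Interferons are secreted proteins that bind receptors on the same or on neighbouring cells. Type I interferon receptors act through the kinases JAK1 and TYK2 and switch on a transcription factor complex that includes STAT2 and IRF9 and binds the interferon-stimulated response element in DNA; interferon gamma acts through another element, the gamma-activated site. An IFI name does not give the function of a protein, and the IFI-named set joins several protein families. IFI6, IFI27, IFI27L1 and IFI27L2 form the FAM14 family of small hydrophobic membrane proteins, IFI44 and IFI44L are a pair of related cytoplasmic proteins, IFI35 is a leucine zipper protein, and IFI30 is a thiol reductase of the lysosome.

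The libraries held between 8574066 and 9692967 counts in knockdown and between 7294687 and 11579849 in shControl. COMMD3 fell to 11.6 ± 1.22 CPM in knockdown, against 29.7 ± 2.04 CPM in shControl (SD, n = 3 each; CPM, the count of a gene relative to the TMM-scaled total of its library), with a log2 fold change of −1.37 and an edgeR adjusted p of 2.34e-12. BMI1 did not pass (log2 fold change −0.07, adjusted p = 0.206 by edgeR), and COMMD3-BMI1 was listed at 0 in every library. The 12 neural stem cell markers, of which 1 rose, 4 fell and 7 did not pass, summed to between 3173 and 3273 CPM in knockdown, against 3170 to 3373 CPM in shControl. Of 14 markers of leukocytes, antigen-presenting cells among them, 5 had no count in any library and PTPRC had none in knockdown. The leukocyte list summed to between 33.6 and 35.7 CPM in knockdown and between 40.4 and 41.1 CPM in shControl, most of it NCAM1, which neural cells also express. Endothelial markers summed to between 93.1 and 105 CPM in knockdown and between 137 and 145 CPM in shControl, with 3 of 4 tested lower, and neuron and astrocyte markers to between 571 and 580 CPM in knockdown and between 618 and 670 CPM in shControl, with 1 of 5 tested lower. Over all tested genes, 15.3% were called higher and 18.1% lower. The part of these shifts in the results was not tested.

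Of the 8 genes, 5 rose in knockdown cells (IFI6, IFI27, IFI35, IFI44 and IFI44L), 2 did not pass the test (IFI27L1 and IFI27L2), and IFI30 had too few counts to be tested. None fell by edgeR, at an unadjusted p under 0.05, by DESeq2 or by limma-voom, each with 0 lower. The background is the same 15.3% higher and 18.1% lower of 13632 tested genes (edgeR quasi-likelihood test, p adjusted by Benjamini-Hochberg over all of them, threshold 0.05). In bulk RNA, more cells with a transcript and more transcript per cell cannot be told apart. The knockdown and shControl libraries did not overlap for the 5 genes that rose, as for 44.3% of all tested genes. The median log2 fold change of the 7 tested genes was 4.36, where that of all tested genes was 0.00. The 5 that rose took ranks 7 (IFI44), 9 (IFI27), 21 (IFI44L), 26 (IFI35) and 31 (IFI6) among the 13632 genes ordered from the highest fold change down. Ordered by p, IFI44L took rank 2 and IFI6 rank 5.

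Together the 8 genes took between 683 and 821 CPM of a knockdown library, against 49.2 to 61.1 CPM of a shControl library (here without TMM). The make-up of these counts also differed. IFI6 gave a median of 49.6% of them in knockdown and 39.3% in shControl. IFI27L1, the second most counted of the set in shControl, gave a median of 2.69% in knockdown and 33.5% in shControl. IFI44L gave 29.2% in knockdown and 12.8% in shControl, and IFI44 gave 8.08% in knockdown and 0.836% in shControl.

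**Figure D1:**
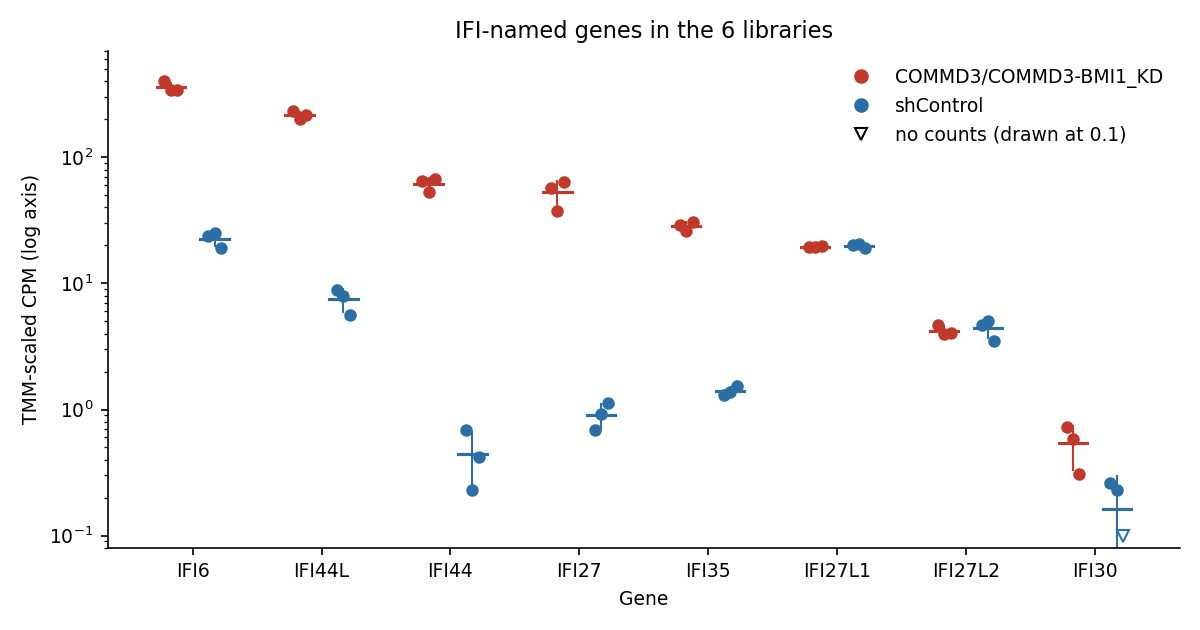
TMM-scaled CPM (log axis) of the 8 IFI-named genes in each library, COMMD3/COMMD3-BMI1_KD in red on the left and shControl in blue on the right of each pair. Horizontal lines are means and vertical lines ± SD (n = 3). The knockdown points of IFI6, IFI44L, IFI44, IFI27 and IFI35 lie far above those of shControl, the groups overlap for IFI27L1 and IFI27L2, and IFI30 lies below 1 CPM in all libraries.

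Promoter windows were read beside these values because 5 of the genes moved together. All 8 genes matched an entry of the RefSeq promoter table (GRCh38.p14), which gives 250 bases before to 50 after an annotated start, 300 in all. The letters searched were GAAANNGAAA, the core of the interferon-stimulated response element, on both strands (TTTCNNTTTC on the other), and TTCNNNGAA, the core of the gamma-activated site, which reads alike on both strands. Among 35116 windows of the same length in the table, 3.57% hold the first and 7.66% the second, and among 10130 tested genes with a window the shares are 2.81% and 6.39%. GAAANNGAAA was found in the windows of IFI6 (3 matches), IFI27 (2), IFI44L (2) and IFI44 (1), and not in the windows of IFI35, IFI27L1, IFI27L2 and IFI30. TTCNNNGAA was found once each in the windows of IFI27 and IFI35. With the GAAA elements set 1 base apart, as GAAANGAAA, IFI35 and IFI44 have 1 match each, against 2.52% of tested genes. The patterns were chosen with the fold changes known, and a match is a match of letters only.

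**Figure D2:**
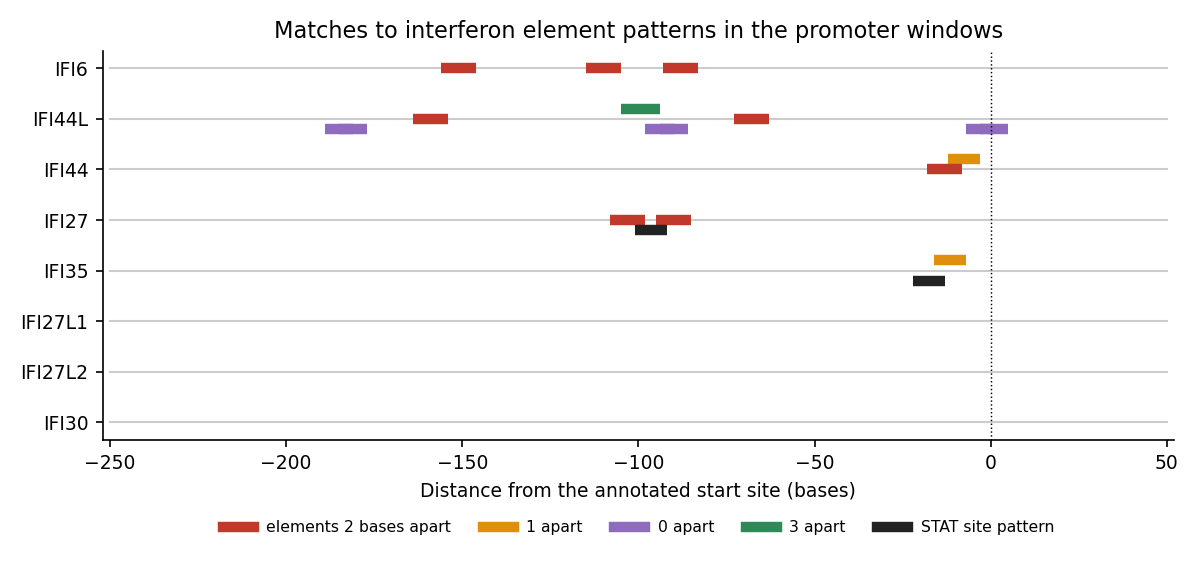
Matches to interferon element patterns in the 300-base promoter window of each IFI-named gene, by distance in bases from the annotated start site (dotted line). Red marks GAAA elements 2 bases apart on either strand, other colours mark spacings of 1, 0 and 3 bases, and black marks TTCNNNGAA (STAT site pattern in the key). The windows of IFI6, IFI27, IFI44L and IFI44 hold at least 1 red mark. That of IFI35 holds an orange mark (1 base apart) and no red mark, and those of IFI27L1, IFI27L2 and IFI30 hold no mark. The patterns were chosen with the fold changes known, and IFI30 had too few counts to be tested.

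IFI6, known as a mitochondrial and endoplasmic reticulum membrane protein that delays cell death and limits flaviviruses, was the most abundant gene of the set. It had 402, 340 and 339 CPM in knockdown libraries 1 to 3, against 23.65, 25.25 and 19.06 CPM in shControl libraries 1 to 3. Every knockdown library stood far above every shControl library. IFI6 was 15.7-fold higher in knockdown (95% interval 14.1 to 17.4; log2 fold change 3.97, SE 0.0742, adjusted p = 6.06e-28 by edgeR). In GRCh38 the gene (ENSG00000126709) spans bases 27666061 to 27672218 of chromosome 1, minus strand (annotation of GENCODE release 29).

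IFI27, another FAM14 protein, sits in mitochondria and is known to promote cell death and to lower viral replication. It had 57.1, 37.4 and 64.0 CPM in knockdown libraries 1 to 3, against 0.691, 0.914 and 1.12 CPM in shControl libraries 1 to 3. The shControl values rest on 8 counts in each library, against 545, 321 and 622 counts in knockdown. IFI27 was 59.9-fold higher in knockdown (95% interval 43.2 to 83.1; log2 fold change 5.90, SE 0.231, adjusted p = 2.23e-19 by edgeR). Its gene (ENSG00000165949) spans bases 94104836 to 94116698 of chromosome 14, plus strand. Of the 5 genes that rose, IFI27 varied most within knockdown, with a coefficient of variation of 26.2%, where the other 4 had 6.99% to 12.3%. Its low value was in knockdown library 2, which was also the lowest of the 3 for IFI35, IFI44 and IFI44L. Without that library the log2 fold change of IFI27 was 6.09 (edgeR adjusted p = 2.87e-25).

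The other 2 members of the family, IFI27L1 and IFI27L2, flank IFI27 on chromosome 14 and did not follow it. IFI27L1 had 19.27, 19.32 and 19.95 CPM in knockdown libraries 1 to 3, against 20.1, 20.6 and 19.1 CPM in shControl libraries 1 to 3. The groups overlapped, with a log2 fold change of −0.03 (95% interval −0.22 to 0.15; edgeR adjusted p = 0.818), so that folds above 1.11 or below 0.859 lay outside the interval. IFI27L2 had 4.71, 3.96 and 4.01 CPM in knockdown libraries 1 to 3, against 4.66, 5.03 and 3.50 CPM in shControl libraries 1 to 3, and the groups overlapped. Its log2 fold change was −0.08 (edgeR adjusted p = 0.788), with a wider 95% interval of −0.47 to 0.31, at 118 counts over knockdown and 123 over shControl. IFI27L1 (ENSG00000165948) runs from 94081282 to 94103846 on the plus strand and IFI27L2 (ENSG00000119632) from 94127779 to 94130253 on the minus strand. No exon base of IFI6, IFI27, IFI27L1 or IFI27L2 is shared with another gene in GENCODE release 29.

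The windows of IFI6, IFI27 and IFI27L1 are shown because IFI27 and IFI27L1 are neighbours that differed in response, and because IFI6, on another chromosome, is a family member that also rose. Capitals mark GAAANNGAAA on either strand. The window of IFI6 covers chr1:27672143-27672442 (minus strand), that of IFI27 chr14:94110486-94110785 (plus strand) and that of IFI27L1 chr14:94081060-94081359 (plus strand), each 5′ to 3′.
IFI6: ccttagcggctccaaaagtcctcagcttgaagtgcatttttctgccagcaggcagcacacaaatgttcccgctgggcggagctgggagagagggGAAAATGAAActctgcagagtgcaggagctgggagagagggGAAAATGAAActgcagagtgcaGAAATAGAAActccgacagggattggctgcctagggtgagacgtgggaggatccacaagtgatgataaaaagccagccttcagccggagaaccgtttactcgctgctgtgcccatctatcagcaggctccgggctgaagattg
IFI27: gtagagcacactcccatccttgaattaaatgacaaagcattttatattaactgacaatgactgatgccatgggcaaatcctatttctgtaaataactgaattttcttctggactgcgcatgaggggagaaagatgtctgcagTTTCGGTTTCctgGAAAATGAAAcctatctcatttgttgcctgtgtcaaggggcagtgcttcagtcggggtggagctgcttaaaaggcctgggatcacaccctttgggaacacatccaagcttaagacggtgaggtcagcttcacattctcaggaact
IFI27L1: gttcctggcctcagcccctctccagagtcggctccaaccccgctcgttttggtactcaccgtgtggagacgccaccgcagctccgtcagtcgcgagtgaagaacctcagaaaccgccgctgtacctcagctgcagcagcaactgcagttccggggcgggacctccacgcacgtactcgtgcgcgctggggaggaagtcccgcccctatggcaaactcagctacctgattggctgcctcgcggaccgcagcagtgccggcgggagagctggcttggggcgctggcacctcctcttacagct

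In IFI6, 2 of the 3 matches, beginning at positions −156 and −115 (−1 is the base before the start), sit in a run of 29 bases found 2 times in the window (ggagctgggagagaggggaaaatgaaact). IFI6 and IFI27 share the 12-base run ggaaaatgaaac around a match, and IFI6 and IFI27L1 share a run of the same length, gattggctgcct, that holds none. In IFI27 the TTCNNNGAA match, from −101 to −93, overlaps both GAAANNGAAA matches. RefSeq gives IFI27 another start, whose window holds the same matches. Base composition differed too: the window of IFI27 has 44.7% G and C with 4 CG pairs. That of IFI27L1 has 65.3% with 25 and that of IFI27L2 63.3% with 21, where the median gene has 58.3% with 14. The IFI27L1 window also covers the start of the neighbouring gene DDX24, on the other strand.

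IFI44 and IFI44L are related proteins, reported to act on antiviral signalling, whose genes lie next to each other on chromosome 1 in the same direction. IFI44 had 65.44, 53.07 and 66.96 CPM in knockdown libraries 1 to 3, against 0.6907, 0.2285 and 0.4203 CPM in shControl libraries 1 to 3. In counts, this is 625, 456 and 651 in knockdown against 8, 2 and 3 in shControl, and every knockdown library lay above every shControl library. IFI44 had the highest fold of the set, 128-fold (95% interval 98.4 to 165; log2 fold change 6.99, SE 0.183, adjusted p = 4.72e-24 by edgeR). Since only 13 counts lie in the 3 shControl libraries, a ratio of summed counts per library total had an exact 95% binomial interval of 77.7 to 251 around 133, which covers counting error only. Without shControl library 1 the log2 fold change was 7.56, and without shControl library 2 it was 6.69.

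IFI44L had 231.6, 201.3 and 216.5 CPM in knockdown libraries 1 to 3, against 8.892, 7.885 and 5.605 CPM in shControl libraries 1 to 3. The groups lay well apart, with the lowest shControl value in library 3. It was 28.1-fold higher in knockdown (95% interval 25 to 31.6; log2 fold change 4.81, SE 0.0825, adjusted p = 1.20e-28 by edgeR). IFI44L (ENSG00000137959) runs from 78619922 to 78646145 and IFI44 (ENSG00000137965) from 78649796 to 78664078, both on the plus strand, and no exon base of either is shared with another gene.

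The IFI44 and IFI44L windows are shown because these neighbours both rose, by unequal folds. The IFI44 window is chr1:78649539-78649838 and the IFI44L window chr1:78620198-78620497, both on the plus strand and 5′ to 3′, with GAAANNGAAA on either strand in capitals.
IFI44: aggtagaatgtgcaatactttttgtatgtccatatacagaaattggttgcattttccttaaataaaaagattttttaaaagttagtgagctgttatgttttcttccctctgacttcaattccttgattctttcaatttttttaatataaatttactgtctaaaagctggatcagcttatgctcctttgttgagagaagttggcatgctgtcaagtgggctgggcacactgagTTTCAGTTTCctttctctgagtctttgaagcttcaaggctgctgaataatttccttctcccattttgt
IFI44L: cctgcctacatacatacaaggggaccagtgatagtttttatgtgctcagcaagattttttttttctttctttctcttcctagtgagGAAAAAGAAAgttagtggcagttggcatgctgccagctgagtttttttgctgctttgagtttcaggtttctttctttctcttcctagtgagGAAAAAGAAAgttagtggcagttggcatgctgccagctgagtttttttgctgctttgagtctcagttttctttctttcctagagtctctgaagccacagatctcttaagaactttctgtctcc

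The window of IFI44L holds a run of 85 bases found 2 times, the copies beginning at −189 and −98, and each copy carries 1 of its 2 matches. The longest run that IFI44 and IFI44L share is agttggcatgctg, of 13 bases. In IFI44 the match lies from −18 to −9 and overlaps the GAAANGAAA match by 4 bases. GAAAGAAA, with no base between the elements, occurs 6 times on the other strand of the IFI44L window, in 3 overlapping pairs, where 2.11% of tested genes have any. Neither window has a CG pair.

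IFI35, known to bind NMI and to take part in the control of innate signalling, was well expressed in knockdown and low in shControl. It had 29.32, 25.95 and 30.76 CPM in knockdown libraries 1 to 3, against 1.295, 1.371 and 1.541 CPM in shControl libraries 1 to 3. The groups did not overlap, and IFI35 was 20.6-fold higher in knockdown (95% interval 16.4 to 25.8; log2 fold change 4.36, SE 0.159, adjusted p = 3.42e-20 by edgeR). IFI35 (ENSG00000068079) runs from 43006725 to 43014456 on the plus strand of chromosome 17, with no exon base shared with another gene.

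The IFI35 window (chr17:43006534-43006833, plus strand, 5′ to 3′) is shown because IFI35 is the gene of the 5 that rose with no GAAANNGAAA match in its window. Capitals mark its GAAANGAAA match, from −16 to −8, which overlaps a TTCNNNGAA match from −22 to −14.
IFI35: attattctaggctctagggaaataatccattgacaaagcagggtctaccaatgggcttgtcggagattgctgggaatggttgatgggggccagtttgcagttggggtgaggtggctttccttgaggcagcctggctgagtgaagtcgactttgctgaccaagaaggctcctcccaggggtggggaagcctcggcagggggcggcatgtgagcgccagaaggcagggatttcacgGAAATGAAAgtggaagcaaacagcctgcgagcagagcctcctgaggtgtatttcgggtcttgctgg

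IFI30 reduces disulfide bonds of proteins taken up into lysosomes, a step of class II antigen presentation, and is known as an interferon gamma target of antigen-presenting cells. It had 7, 5 and 3 counts in knockdown libraries 1 to 3, against 3, 2 and 0 counts in shControl libraries 1 to 3. Knockdown library 3 and shControl library 1 thus held the same count. These are 0.733, 0.582 and 0.309 CPM in knockdown, against 0.259, 0.2285 and 0 CPM in shControl, where 3 counts correspond to between 0.259 and 0.42 CPM. The ratio of summed counts per library total was 3.00, with an exact 95% binomial interval of 1.04 to 10.5 that covers counting error only. With no filter on low counts, IFI30 had an unadjusted p of 0.0465 and an adjusted p of 0.150 by edgeR, so it did not pass. IFI30 (ENSG00000216490) spans bases 18173162 to 18178117 of chromosome 19, plus strand, and 40.2% of its exon bases are shared with another annotated protein-coding gene on the same strand, so how reads were assigned there is uncertain.

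To compare levels between genes, CPM were divided by the kilobases of exon of each gene. In knockdown the order of levels was IFI6 (416 CPM per kilobase), IFI44 (30.3), IFI44L (21.1), IFI35 (14.5), IFI27 (12.7), IFI27L1 (8.20), IFI27L2 (2.54) and IFI30 (0.218). In this order the libraries of IFI35 and IFI27 overlapped, at 13.2 to 15.6 and 9.01 to 15.4 CPM per kilobase. In shControl the order was IFI6 (26.2 CPM per kilobase), IFI27L1 (8.37), IFI27L2 (2.65), IFI44L (0.729), IFI35 (0.711), then IFI44 and IFI27 (both 0.219), and IFI30 (0.0655). The ranges of IFI44L and IFI35 overlapped there, as did those of IFI44 and IFI27. IFI27L1 and IFI27L2 thus stood at ranks 6 and 7 in knockdown and at ranks 2 and 3 in shControl. The order depends on the length used: with the longest transcript in place of all exon bases, IFI27L1 stood at 23.6 CPM per kilobase in knockdown, with IFI35 and IFI27 next at overlapping ranges (23.3 to 24.1, 20.9 to 24.8 and 15.3 to 26.2 for IFI27L1, IFI35 and IFI27), and IFI44L at 36.9 beside IFI44 at 36.7.

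Ratios of related genes within each library show how unequal the changes were, and scaling between libraries largely cancels in them. The log2 ratio of IFI44L over IFI44 was 1.81 ± 0.115 in knockdown and 3.57 ± 0.539 in shControl (SD, n = 3 each; CPM with a prior count of 2), a difference of −1.76 that was −2.18 with a prior count of 0.5 and −1.22 with 5. IFI44L was thus the more abundant of the pair in CPM in every library, by less in knockdown. The log2 ratio of IFI27 over IFI6 was −2.80 ± 0.389 in knockdown and −4.35 ± 0.451 in shControl, a difference of 1.56. That difference was 1.77 with a prior count of 0.5 and 1.21 with 5. IFI27 over IFI27L1 had a log2 ratio of 1.39 ± 0.391 in knockdown and −4.18 ± 0.319 in shControl, so in CPM, with no account of length, IFI27 was above its neighbour in all 3 knockdown libraries and below it in all 3 shControl libraries. IFI27 over IFI27L2 had 3.54 ± 0.377 in knockdown and −2.04 ± 0.499 in shControl. With prior counts of 0.5 and 5, the difference was 5.795 and 5.203 for IFI27 over IFI27L1. For IFI27 over IFI27L2 it was 5.811 and 5.216. IFI27L1 over IFI27L2 had 2.15 ± 0.149 in knockdown and 2.14 ± 0.206 in shControl, a difference of 0.01. The groups did not overlap for the first 4 of these 5 ratios (exact permutation test, two-sided, p = 0.1 for each, the smallest 3 against 3 allows, and 0.125 adjusted over 5), and overlapped for the last (exact p = 1).

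**Figure D3:**
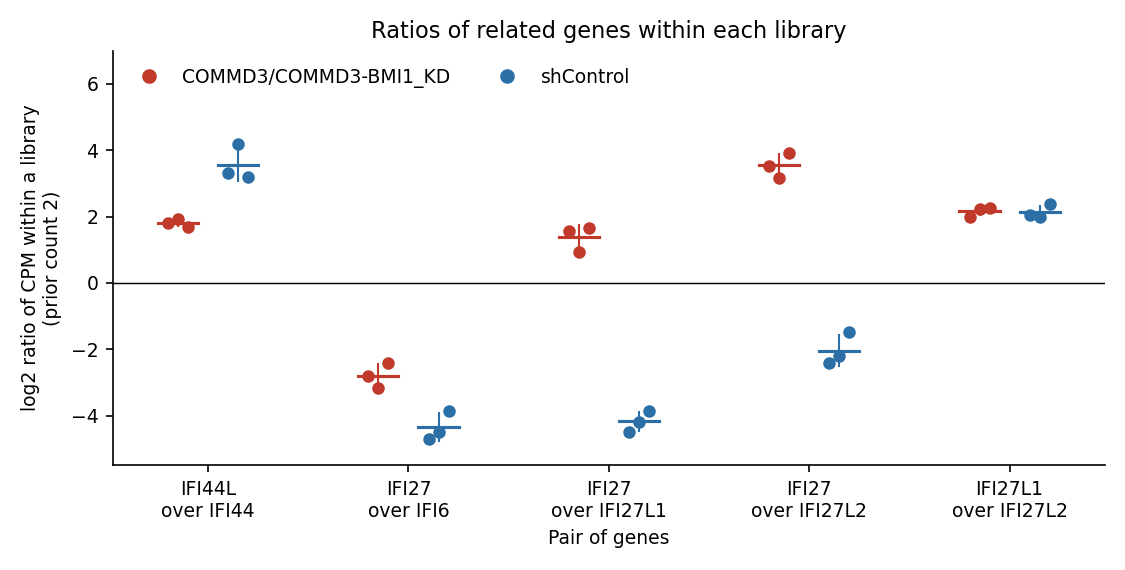
The log2 ratio of CPM (prior count 2) within each library for 5 pairs of related genes, COMMD3/COMMD3-BMI1_KD in red left of shControl in blue, with means as horizontal and ± SD as vertical lines (n = 3 each). The ratios of IFI27 to both of its chromosomal neighbours are above 0 in knockdown and below 0 in shControl, while the points of IFI27L1 over IFI27L2 lie near 2 in both groups.

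The nearest tested genes outside the set had log2 fold changes of at most 0.22 in size at each locus. Some of them lie far off. DNAJB4 is 601958 bases from IFI44L and ADGRL4 is 225686 bases from IFI44, while AHDC1 and FAM76A are 61630 and 53761 bases from IFI6. Around the chromosome 14 group, DDX24 and PPP4R4 did not pass, each with a log2 fold change of 0.02 (adjusted p = 0.807 and 0.948 by edgeR). DDX24 and IFI27L1 lie on opposite strands, and their starts are 37 bases apart. VAT1, whose gene ends 149 bases from that of IFI35 on the other strand, rose to 190 ± 4.65 CPM in knockdown, against 173 ± 17 CPM in shControl (log2 fold change 0.15, edgeR adjusted p = 0.0270). AHDC1, beside IFI6, rose by 0.22 on the log2 scale (edgeR adjusted p = 0.000289), and ADGRL4, beyond IFI44, fell by 0.14 (edgeR adjusted p = 0.0119). RPL27, FAM76A and DNAJB4 did not pass, with log2 fold changes between 0.07 and 0.11. At IFI30, PIK3R2 did not pass (log2 fold change −0.01) and MPV17L2 fell by 0.21 on the log2 scale (edgeR adjusted p = 0.0380).

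**Figure D4:**
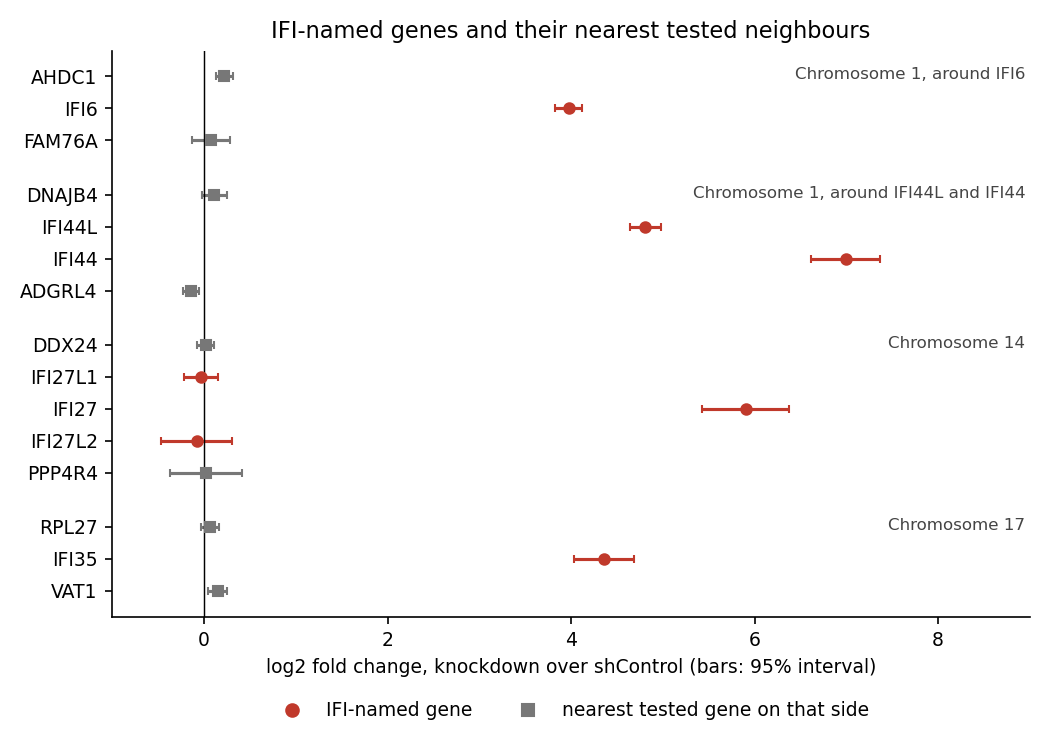
Log2 fold change, knockdown over shControl, with its 95% interval from edgeR, for 7 tested IFI-named genes (red circles) and the nearest tested gene on each side (grey squares), in chromosomal order. IFI6, IFI44L, IFI44, IFI27 and IFI35 stand at 3.97 to 6.99, and IFI27L1, IFI27L2 and the neighbours stand between −0.14 and 0.22.

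Each of the 5 genes that rose was also set beside the tested genes outside the set with the most similar profile. Likeness was the Euclidean distance of log2 CPM over the 6 libraries after each gene's shControl mean was subtracted. IFI6 lay nearest to TAP1, SP100 and TRIM14 (distances 0.564, 0.571 and 0.584). IFI35 lay nearest to TRIM14, LY6E and HLA-C (0.33, 0.393 and 0.59), and its distance to IFI6 was 0.581. IFI27 lay nearest to OAS3 at 0.459, with OASL and BST2 next. OASL, at 0 CPM in shControl, had a log2 fold change of 9.77 by edgeR, against 5.90 for IFI27. Its place here thus rests on the prior count. IFI44L lay nearest to ISG15 at 0.439, then CCL5 and HERC6. IFI44 had no close neighbour by comparison, with MX1 at 0.817, EPSTI1 at 1.23 and XAF1 at 1.498. Among the 5 genes that rose, the distance between IFI44 and IFI44L was 3.14.

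Most interferon effector genes outside the set rose along with these 5 genes. Of 36 tested effector genes of interferon outside the set, 34 rose, where 15.3% of all tested genes were called higher and 18.1% lower. The median log2 fold change of the 36 was 3.15 beside 0.00 for all tested genes. The list was drawn up with earlier results of these data known. The 2 that did not pass were ISG20 (log2 fold change 0.39) and IFITM2 (−0.10), named after their values were known. The 4 with the smallest p were MX1 (log2 fold change 6.58), IFIT1 (5.30), OAS3 (5.57) and OAS1 (9.17), antiviral proteins that restrict viruses or sense their RNA. Effectors summed to between 3546 and 4082 CPM in knockdown, against 884.5 to 948.1 CPM in shControl. Among receptor and signalling genes, IFNAR1, IFNAR2, IFNGR1, IFNGR2, JAK1 and JAK2 did not pass, with log2 fold changes between −0.13 and 0.11 (named with their values known). IRF9 rose to 92.3 ± 9.32 CPM in knockdown, against 10.3 ± 0.696 CPM in shControl (SD, n = 3 each). STAT2, which joins IRF9 in its complex, rose by 0.29 on the log2 scale (edgeR adjusted p = 4.94e-05; named with its values known), and the transcription factors IRF7 and IRF1 rose by 2.40 and 1.48. The receptor kinase TYK2 fell to 40.7 ± 2.80 CPM in knockdown, against 57.9 ± 2.51 CPM in shControl (named with its values known).

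Of 22 interferon genes, 17 had no count in any library and none was expressed enough to be tested. IFNB1, which encodes interferon beta and is named with its values known, had 3, 4 and 5 counts in knockdown libraries 1 to 3 and none in any shControl library. A shControl library at 0 allows up to 3 counts, so no fold is given. The other 4 detected interferon genes had at most 2 counts over a group.

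In class II antigen processing, the pathway of IFI30, 5 of 10 tested genes rose, 1 fell, and 4 did not pass; their median log2 fold change was 0.16. Over all tested genes 15.3% were called higher and 18.1% lower. DESeq2 called 4 of the 10 higher and 1 lower, and no call of edgeR in this list reached 1.5-fold (0, also 0 at an unadjusted p under 0.05 and 0 by DESeq2 and limma-voom). The lysosomal proteases CTSB, CTSD and LGMN rose by 0.23, 0.24 and 0.31 on the log2 scale and the lysosomal membrane protein LAMP1 fell by 0.17. CIITA, the activator of class II genes, and HLA-DRA had no count in any library (both named with their values known). Other genes of the list were expressed. CD74 rose to 11.9 CPM in knockdown, against 9.31 CPM in shControl (log2 fold change 0.38, edgeR adjusted p = 0.0231). HLA-DMA, HLA-DMB and HLA-DPB1 were tested and did not pass, with log2 fold changes of −0.29, −0.19 and −0.15 (all named with their values known). Of 5 genes whose proteins are reported to bind members of the set, NMI, the partner of IFI35, rose to 9.06 ± 1.74 CPM in knockdown, against 2.32 ± 0.185 CPM in shControl (log2 fold change 1.98, SE 0.194, adjusted p = 1.88e-09 by edgeR). The log2 fold changes of FKBP5, C1QBP and SKP2, which fell, were −0.20, −0.18 and −0.13 (2 of the partner genes are called lower by DESeq2), while HSPA5, with a log2 fold change of 0.09 and an adjusted p of 0.108 by edgeR, did not pass.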

How the data were processed

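RNA was extracted from 3 COMMD3/COMMD3-BMI1_KD and 3 shControl libraries of AF22, grouped by their titles, and 700 ng went into a directional library, per the labels' protocols. Tools and build listed in the submitters' processing notes, without roles, are hg38, bedtools, STAR 2.7.10a and Trim Galore 0.6.6. How reads were counted, the strand setting and the annotation: not given in the sources used here. Whole-number read counts per gene symbol, not normalised, were deposited by the authors.

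Counts were filtered with filterByExpr, scaled by TMM and compared by the edgeR 4.0.16 quasi-likelihood test (R 4.3.3) with no covariate, over all 13632 tested genes, with Benjamini-Hochberg adjusted p under 0.05 as the call. An SE is the size of a log2 fold change over the root of F. Related genes were compared by exact permutation of libraries. Intervals are at 95%. Alternatives included DESeq2 1.42.0 and limma-voom (limma 3.58.1). The fits were tested on simulated data. Coordinates and exon lengths come from GENCODE release 29 and promoter windows from RefSeq. The genes to be named were all 8, the locus of the knockdown and the 3 nearest profiles outside the set. The nearest tested neighbours and up to 4 called genes of each list were also to be named. The genes and lists were chosen with earlier results of these data known. A chi-square statistic per degree of freedom between replicates was 1.23 to 1.99, so no pair agreed within sampling noise. Figures used Python 3.11.15 and Matplotlib 3.10.9. The count over the interferon signalling list is not reported here.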

Additional observations from a re-analysis of the deposited data

How the results depend on the processing

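The 5 genes that rose kept their direction and their call in each of the 14 other fits (scaling by RLE, by upper quartile or by library size; either no filter or 1 CPM in 3 libraries; DESeq2 and limma-voom; a replicate block; each library left out in turn). Their log2 fold changes ranged from 3.89 to 4.05 for IFI6, 5.70 to 6.09 for IFI27, 4.30 to 4.43 for IFI35, 6.69 to 7.56 for IFI44 and 4.68 to 4.98 for IFI44L. IFI27L2 had a log2 fold change between −0.18 and 0.0128 with a library left out, above 0 without shControl replicate 2. The difference in IFI27L1 over IFI27L2 ran from −0.062 to 0.132 when a library was left out. DESeq2 called 2877 genes across the table, where edgeR called 4545. An adjusted p under 0.01 left 2943 genes, and a change of 1.5-fold or more left 668, of the class II list 0 (also 0 at an unadjusted p by edgeR, and 0 by DESeq2 and limma-voom) and of the 5 partner genes 1. With the longest transcript as length, knockdown levels in CPM per kilobase were 21.65 for IFI27, 23.6 for IFI27L1, 4.51 for IFI27L2, 23.1 for IFI35, 36.65 for IFI44 and 36.9 for IFI44L. With the replicate number as a block, 5248 genes and the same number of the 8 genes, 5, were called. Same-numbered libraries deviated together only weakly (r = 0.079, 0.005 and 0.071). Knockdown libraries 1 and 3 correlated best with the shControl library of their own number, and knockdown library 2 with shControl library 3. The numbers were not taken to pair the samples. Depth limits IFI30, at 20 counts in all, and the fold of IFI44, which rests on 13 shControl counts.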
